A study of Homo sapiens with 24 samples.

Results

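The 10 genes described here are negative-feedback genes and direct targets of the transcription factor NF-kB: NFKBIA, NFKBIZ, TNFAIP3, BIRC3, NFKB1, NFKB2, RELB, ICAM1, TNFAIP2 and SOD2. They were taken by gene symbol from a count table of 37411 genes; the rule names genes and no measured value, and the set was drawn up with earlier results of these data known. All 10 were found, and all 10 were among the 17409 genes that passed the filter on low counts.

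The libraries came from PC9, an established human line of non-small cell lung cancer, and asked how the drug ISRIB acts when cells lack asparagine. ISRIB stabilizes the translation initiation factor eIF2B and so blocks the integrated stress response, the programme that cells start when an amino acid runs short. Plated cells were rinsed and given RPMI 1640 medium with or without asparagine, and with 200 nM ISRIB or with its solvent, 0.004% DMSO (vehicle). The change was made either 6 h or 24 h ahead of the harvest, which gave 8 groups of 3 biological replicates, 24 libraries in all. All groups therefore received a medium change, and no library without one was used here. The labels do not say what the replicate numbers share between groups.

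NF-kB is a family of dimers built from RELA, RELB, REL and the processed products of NFKB1 and NFKB2. In resting cells the dimers are held in the cytoplasm by IkB proteins, and a signal from cytokine or pattern receptors leads to IkB destruction and entry of the dimers into the nucleus. Many of the genes that the dimers then switch on encode their own brakes, among them the IkB protein NFKBIA and the ubiquitin-editing enzyme TNFAIP3 (A20). In lung epithelium the pathway is known for control of inflammatory mediators, adhesion molecules and survival factors.

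RefSeq promoter windows, 250 bases before to 50 bases after an annotated transcript start, were matched for 9 of the 10 genes and searched on both strands for the 10-base kappa-B consensus, the DNA element that NF-kB dimers bind. RELB had no entry. A match was present in at least 1 window of 6 genes (NFKBIA, NFKBIZ, TNFAIP3, NFKB1, NFKB2 and BIRC3) and in no window of 3 (TNFAIP2, ICAM1 and SOD2). The consensus was GGGRNWYYCC, with R for A or G, W for A or T, Y for C or T and N for any base. A site that differed from it by 1 base was not counted. The window of ICAM1 holds such a site, tggaaattcc, which differs in its first base. Sites outside the windows were not searched. The same search found a match in 5.91% of all 35116 windows and in 7.09% of all 27305 genes. For each gene with a match 1 stretch is shown, since this element is what is held to join the genes as NF-kB targets. The stretch of TNFAIP3 holds a pair of adjacent matches. Counted over both strands, NFKB2 held 4 matches in 1 window and 2 in another. NFKBIZ held 1 and 2 in its windows, and BIRC3 held 2 in its window. A relation between the number of matches and the size of change was not tested. Each line gives 30 bases of GRCh38.p14 on the gene's own strand, 5′ to 3′, with bases of a match in capitals.
NFKBIA, minus strand, chr14:35404811-35404840, match from 81 bases before the start: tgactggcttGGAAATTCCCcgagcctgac
NFKBIZ, plus strand, chr3:101827757-101827786, match from 223 bases before the start: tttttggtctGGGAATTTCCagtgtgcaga
TNFAIP3, plus strand, chr6:137867188-137867217, first match from 67 bases before the start: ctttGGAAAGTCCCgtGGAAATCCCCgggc
NFKB1, plus strand, chr4:102501300-102501329, match from 49 bases before the start: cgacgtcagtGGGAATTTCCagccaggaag
NFKB2, plus strand, chr10:102395674-102395703, match from 21 bases before the start: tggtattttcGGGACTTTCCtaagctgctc
BIRC3, plus strand, chr11:102317275-102317304, match from 199 bases before the start: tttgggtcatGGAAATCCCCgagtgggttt

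The match is a description of letters in these windows, and binding was not measured. For NFKBIA, the classical feedback inhibitor, the 250 bases before the RefSeq start (chr14:35404750-35404999, minus strand, no overlap with an annotated exon of GENCODE 29) show the match in its wider setting, again in capitals.
NFKBIA promoter: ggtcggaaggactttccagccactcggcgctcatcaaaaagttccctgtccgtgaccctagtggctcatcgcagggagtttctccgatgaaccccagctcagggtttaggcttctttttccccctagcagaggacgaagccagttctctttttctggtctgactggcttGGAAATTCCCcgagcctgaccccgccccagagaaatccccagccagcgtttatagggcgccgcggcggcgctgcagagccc

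Library totals ranged from 16737384 to 27495861 counts, and no library pair held identical values. Levels are given as counts scaled to the library total (CPM), and differences as log2 changes ± SE from edgeR's quasi-likelihood test with Benjamini-Hochberg adjustment over all 17409 genes, called below an adjusted p of 0.05. Unless another tool or a block is named, they come from the fit with 1 mean per group. ASNS, the asparagine synthetase gene that the stress response switches on, checked the labels: with vehicle at 6 h it read 150.7 to 175 CPM without asparagine and 26.7 to 30.8 CPM with it. Epithelial markers such as KRT8 and EPCAM summed to 8210 to 11300 CPM, and leukocyte markers to 0.778 to 2.47 CPM, with CD3E at 0 in 18 of 24 libraries. The slope of counts on GC content differed between libraries, and 3 libraries had the most negative slopes: ISRIB with asparagine at 24 h replicate 3, ISRIB without asparagine at 6 h replicate 3, and ISRIB with asparagine at 6 h replicate 1.

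The 10 genes were ordered by time after the medium change far more than by asparagine or ISRIB. In vehicle with asparagine 8 of the 10 were lower at 24 h than at 6 h, where 9.47% of all genes tested were lower. In vehicle without asparagine all 10 were lower (13.2% of all genes), in ISRIB with asparagine 8 (8.62%) and in ISRIB without asparagine all 10 (17.8%). NFKBIZ and SOD2 were the genes not called in both conditions with asparagine. The median log2 change of the 10 was -1.72, -1.92, -1.73 and -1.85 in that order, while the median of all genes lay between -0.003 and 0.007. Across all conditions 8 genes were higher in each of the 12 libraries at 6 h than in each of the 12 at 24 h, as were 3.92% of all genes, and the exceptions were NFKBIZ and TNFAIP2. Without a library from before the medium change, a rise by 6 h and a fall below the starting level by 24 h cannot be told apart.

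**Figure D1:**
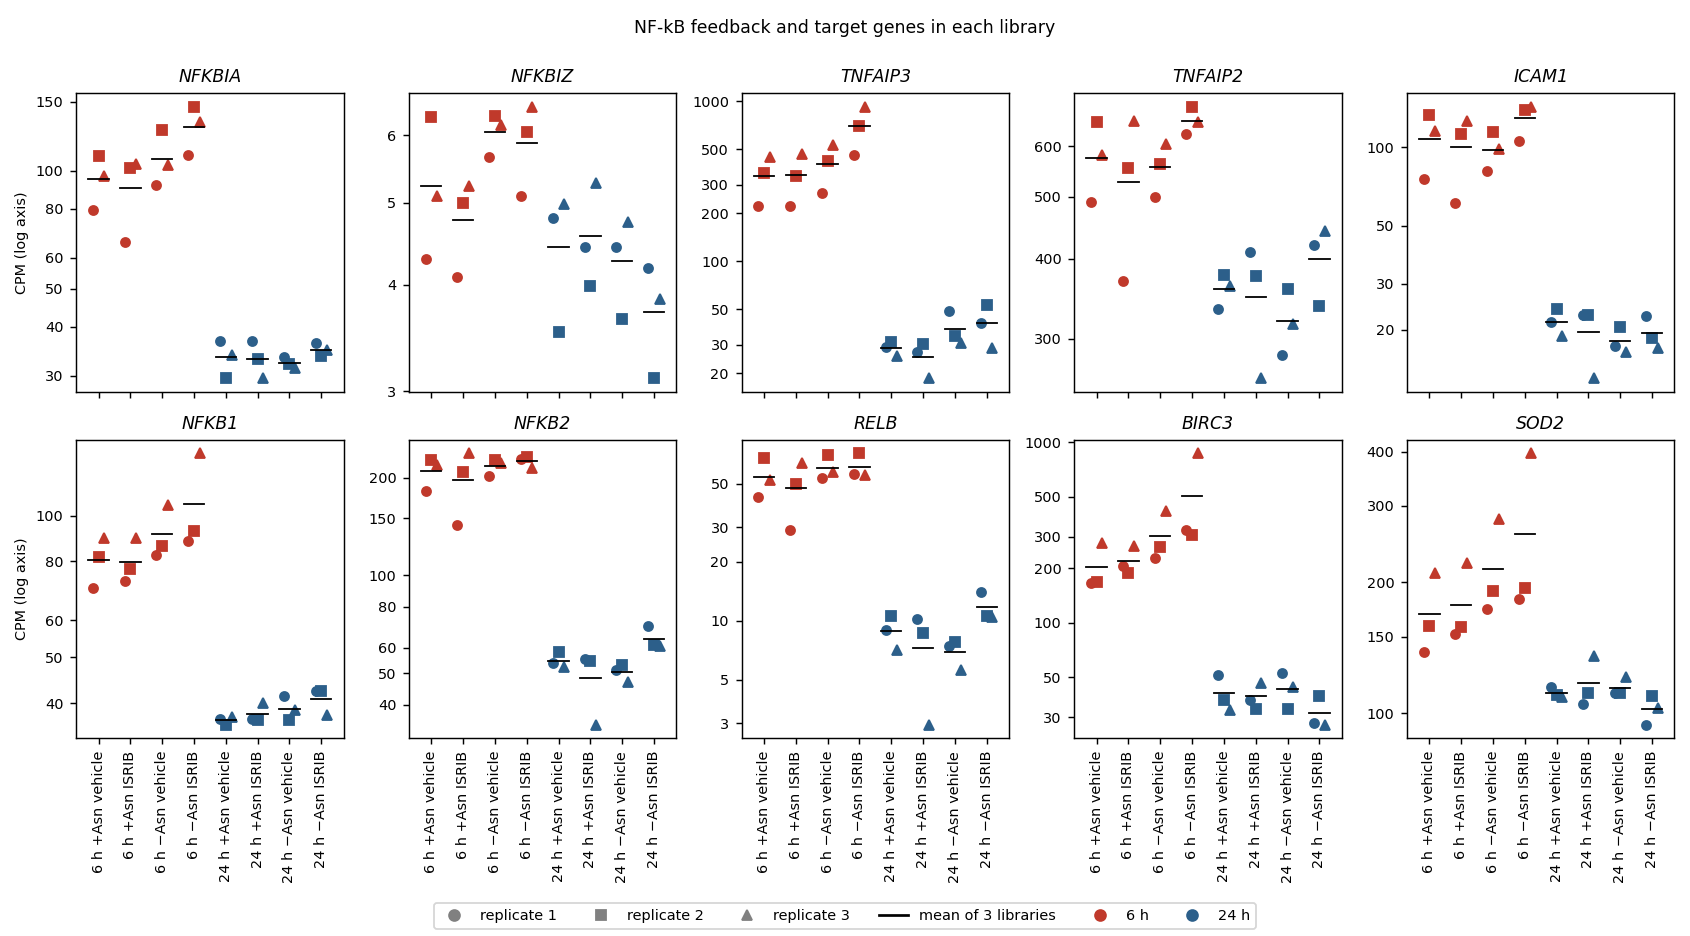
CPM (log axis) of the 10 genes in each of the 24 libraries, by group (+Asn, with asparagine; −Asn, without), with red for 6 h, blue for 24 h, marker shapes for replicate numbers and black bars for the mean of 3 libraries. For all genes except NFKBIZ and TNFAIP2 the red points lie above every blue point, for example 220.2 to 921 against 18.6 to 53.6 CPM for TNFAIP3.

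Among the feedback inhibitors, TNFAIP3, which removes activating ubiquitin chains from the signalling complexes, had the largest change of the 10 in all 4 conditions. With vehicle and asparagine its 3 libraries read 220.3, 357 and 447 CPM at 6 h and 29.3, 31.2 and 25.7 CPM at 24 h. The lowest 6 h library of any condition was 4.11 times the highest 24 h library. Its log2 change was -3.57 ± 0.35 (11.9-fold lower, adjusted p = 9.6e-07, edgeR). The changes in vehicle without asparagine (-3.43), ISRIB with asparagine (-3.75) and ISRIB without asparagine (-4.08) had intervals that overlapped it.

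BIRC3 encodes cIAP2, a ubiquitin ligase of the TNF receptor complex. It read 165, 168 and 275 CPM at 6 h in vehicle with asparagine and 51.6, 37.2 and 32.9 CPM at 24 h. In ISRIB without asparagine it read 326, 307 and 872 CPM at 6 h and 27.7, 39.5 and 27.2 CPM at 24 h. Replicate 3 at 6 h thus stood far above the other 6 h libraries. That library was among the 3 of most negative GC slope, and BIRC3 had the lowest GC content of the 10 genes (34.8%). TNFAIP3, with a GC content of 49.5%, also had its highest value there (921 CPM). The cause of the high BIRC3 value was not tested. The log2 change of BIRC3 was -2.32 ± 0.34 in the first condition and -4.00 ± 0.36 in the second. The values in the remaining conditions were -2.82 without asparagine in vehicle and -2.50 with asparagine in ISRIB.

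NFKBIA, the IkB protein that NF-kB renews after each round of signalling, spanned 65.9 to 146 CPM (median 103.9) over the 12 libraries at 6 h. At 24 h it spanned 29.5 to 36.8 CPM (median 33.5), and the times did not overlap. The log2 change lay between -1.45 ± 0.16 and -1.89 ± 0.16 over the 4 conditions. NFKBIZ, an atypical nuclear IkB that acts as a cofactor, behaved differently. Its level was low at both times, 4.08 to 6.48 CPM at 6 h and 3.11 to 5.27 CPM at 24 h, and these ranges overlapped. It was lower at 24 h without asparagine (-0.51 ± 0.17, adjusted p = 0.036 in vehicle; -0.65 ± 0.18, adjusted p = 0.0071 in ISRIB, both edgeR) and not called with asparagine (-0.24 ± 0.17 and -0.07 ± 0.17). The vehicle call was lost without replicate 1 or 2 at 24 h or without replicate 2 or 3 at 6 h (adjusted p 0.069 to 0.15).

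All 3 Rel-family genes were lower at 24 h in all 4 conditions. RELB, the partner of p52 in the noncanonical pathway, read 42.5, 67.4 and 52.2 CPM at 6 h in vehicle with asparagine and 8.95, 10.5 and 7.04 CPM at 24 h. Its log2 change was -2.61 ± 0.31 (6.1-fold lower) there and ranged from -2.38 to -3.12 over the conditions. The lowest RELB value of all, 2.95 CPM, was in the replicate 3 library of ISRIB with asparagine at 24 h, the library with the most negative GC slope.

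NFKB2, which encodes p100 and p52, read 143 to 238 CPM (median 219.8) at 6 h and 34.8 to 69.8 CPM (median 54.3) at 24 h. Its log2 change in vehicle with asparagine was -1.93 ± 0.16 (3.81-fold lower). NFKB1, the gene for p105 and p50, moved less. It read 70.2 to 136 CPM (median 87.3) at 6 h against 36.0 to 42.5 CPM (median 37.5) at 24 h, with a log2 change of -1.13 ± 0.14 (2.19-fold lower) in the same condition. The genes of the noncanonical pair RELB and NFKB2 had larger changes than NFKB1 in all 4 conditions. The difference between the genes was not tested.

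The 3 effector genes differed widely in size of change. ICAM1, the endothelial and epithelial adhesion molecule bound by leukocytes, read 75.8, 132 and 115 CPM at 6 h in vehicle with asparagine and 21.4, 23.9 and 19.0 CPM at 24 h. Its log2 change there was -2.33 ± 0.25 (5.02-fold lower), and it was lower by similar amounts in the other conditions (-2.35 to -2.73). TNFAIP2, a TNF-induced gene linked to membrane protrusions, overlapped between the times, with 369 to 691 CPM at 6 h and 260.3 to 442 CPM at 24 h. It was lower at 24 h in each condition, with log2 changes of -0.59 ± 0.17 to -0.80 ± 0.17. Its calls with asparagine were lost without vehicle replicate 2 at 6 h (adjusted p = 0.052), or without ISRIB replicate 2 or 3 at 6 h or replicate 3 at 24 h (adjusted p 0.074 to 0.17).

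SOD2, the mitochondrial manganese superoxide dismutase, read 138, 159 and 210.2 CPM at 6 h in vehicle with asparagine and 115, 110.1 and 109 CPM at 24 h. The log2 change of -0.60 ± 0.23 was not called there (adjusted p = 0.075, edgeR), nor was that in ISRIB with asparagine (-0.60 ± 0.23, adjusted p = 0.08). It was lower at 24 h without asparagine (log2 change -0.91 ± 0.23 in vehicle and -1.34 ± 0.23 in ISRIB). Without vehicle replicate 3 at 6 h the former was -0.67 and not called (adjusted p = 0.054). The ranges of SOD2 at the times nearly touched: the lowest 6 h library was 1.02 times the highest 24 h library. Without replicate 3 of ISRIB without asparagine at 6 h, SOD2 was called in both conditions with asparagine, and the counts there became 9 of 10. That library, among the 3 of most negative GC slope, held the highest SOD2 value, 397 CPM. The GC content of SOD2 was 41.7%, and the cause of that value was not tested.

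**Figure D2:**
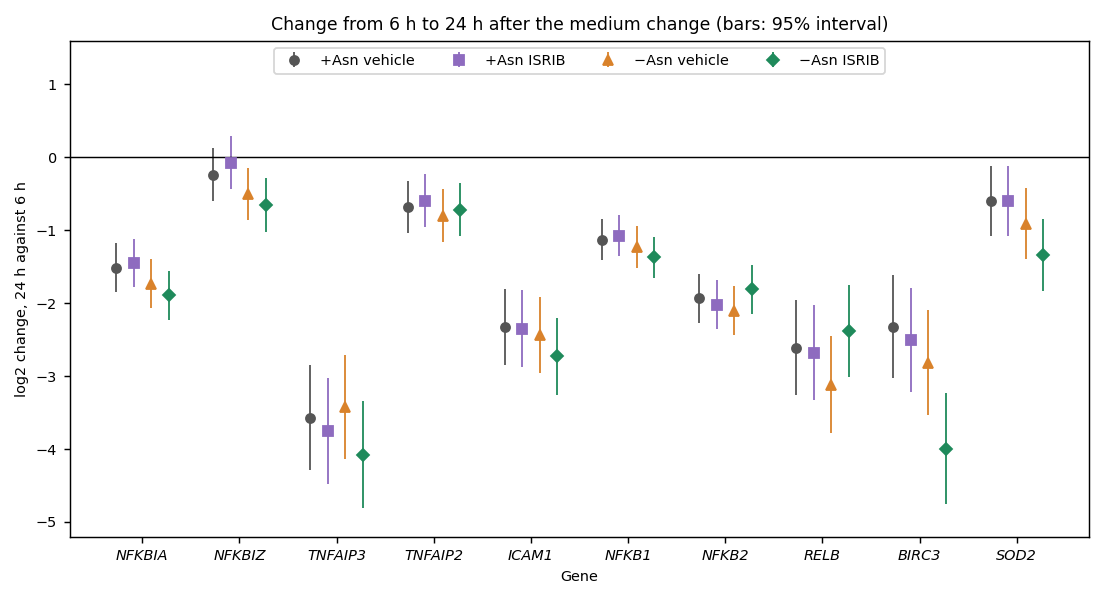
Log2 change from 6 h to 24 h after the medium change for each gene in the 4 conditions (+Asn, with asparagine; −Asn, without), with 95% intervals. TNFAIP3 lies lowest in each condition, from -3.43 to -4.08, and NFKBIZ, TNFAIP2 and SOD2 lie nearest 0.

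CDH5, an endothelial cadherin, moved with these genes. The 3 endothelial markers PECAM1, CDH5 and VWF summed to 24.5 to 57.6 CPM at 6 h and to 3.96 to 11.5 CPM at 24 h, and CDH5 alone read 23.2 to 55.4 against 2.45 to 8.27 CPM. PECAM1 read 0.739 to 5.67 CPM over all libraries. VWF, which defines endothelial cells, was at most 0.374 CPM in all 24 libraries. The fibroblast markers COL1A1, COL1A2 and PDGFRB summed to 3.74 to 13.2 CPM over all libraries, and COL1A2 was at 0 in 13 of 24. All libraries came from the established PC9 line, so these values are levels of marker transcripts in cultures of that line. Fewer cells that express CDH5 and less CDH5 RNA per cell cannot be told apart in such bulk samples. The cause of the CDH5 change was not tested.

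The order of the genes by level per kilobase of exon also differed between the times. Exon length was the union of all annotated exons of a gene, 16493 bases for SOD2 and 2373 (NFKBIA) to 7518 (BIRC3) for the others. The length of the transcripts expressed was not measured, so the places, that of SOD2 above all, depend on this choice. Without division by length SOD2 averaged 204.7 CPM at 6 h and 111.2 CPM at 24 h. At 6 h TNFAIP2 (115 CPM per kilobase) and TNFAIP3 (88.5) led, followed by NFKB2 (47.2), NFKBIA (44.5), BIRC3 (40.9), ICAM1 (29.3), RELB (18.4), NFKB1 (14.3), SOD2 (12.4) and NFKBIZ (0.929). The ranges over 12 libraries of each gene and the next below overlapped, except those of SOD2 and NFKBIZ. At 24 h TNFAIP2 (70.9) stood alone above NFKBIA (14.1) and NFKB2 (12.1). SOD2 (6.74), TNFAIP3 (6.59), NFKB1 (6.18), ICAM1 (5.29) and BIRC3 (5.12) formed an overlapping run, above RELB (2.86) and NFKBIZ (0.719). TNFAIP3 thus went from the second place to the fifth, where it was above NFKB1 in 6 of 12 libraries.

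For the 3 genes that varied most between groups, the genes of most similar pattern were named from 11552 candidates by the root mean square difference of log2 CPM over the 24 libraries, each gene centred on its own mean. For TNFAIP3 these were PTGS2, the inducible cyclooxygenase (0.261), ANKRD1, a cardiac and stress-induced ankyrin protein (0.368), and CXCL1, a neutrophil chemokine (0.446). BIRC3 was most like DAPP1 (0.301), ETS1 (0.38) and AKAP12 (0.382). RELB was most like the cell cycle inhibitor CDKN1A (0.323), the phosphatase gene DUSP1 (0.332) and the AP-1 subunit gene FOSL1 (0.372). Within the 10 genes the nearest pairs were NFKB1 with SOD2 (0.247) and NFKBIA with NFKB2 (0.25), while TNFAIP3 and NFKBIZ differed by 1.734. These are descriptions over libraries that share the contrast between the times.

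The rest of the pathway was followed in 4 gene lists. In vehicle with asparagine 20 of the 26 tested genes of the other NF-kB target list were lower at 24 h and none higher (median -1.58), where 9.47% of all genes were lower and 9.34% higher. The log2 change was -3.83 ± 0.33 for PTGS2, -5.08 ± 0.51 for the chemokine gene CXCL8 and -1.08 ± 0.11 for the syndecan gene SDC4. Of the 12 tested genes of other Rel, IkB and feedback proteins, 8 were lower and none higher (median -0.55), among them TNIP1, a partner of TNFAIP3 (-1.44 ± 0.15), TRAF1 (-2.57 ± 0.29) and NFKBIE, another IkB (-1.43 ± 0.17).

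Upstream components held calls in both directions, beside the same 9.47% of all genes lower and 9.34% higher. Of 20 receptors and adaptors 4 were lower and 3 higher at 24 h (median -0.09), with TRAF3 (-0.86 ± 0.09), TNFRSF12A, TRAF2 and RIPK1 lower, and the interleukin-1 receptor gene IL1R1 (0.66 ± 0.11), TRAF5 (1.00 ± 0.19) and IL18R1 higher. Of 17 kinases and ubiquitin enzymes 3 were lower and 1 higher (median -0.10), with TAB3 (-0.71 ± 0.15), the NF-kB inducing kinase gene MAP3K14 (-0.58 ± 0.13) and IKBKE (-0.61 ± 0.14) lower and the IkB kinase gene IKBKB higher (0.40 ± 0.11). In ISRIB without asparagine the counts lower at 24 h were 23 of 26 targets, 9 of 12 feedback genes, 9 of 20 receptors and 7 of 17 kinases, beside the 17.8% of all genes.

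**Figure D3:**
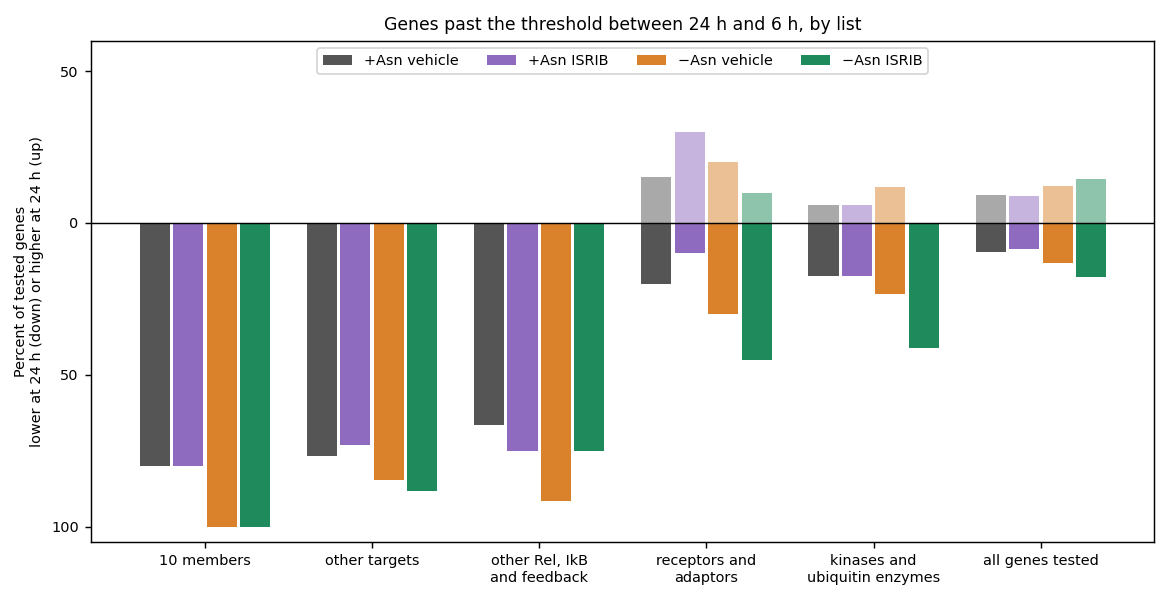
Percent of the tested genes of each list that were lower (solid, downward) or higher (pale, upward) at 24 h than at 6 h in the 4 conditions (+Asn, with asparagine; −Asn, without), with all 17409 genes at the right. The 10 genes, the other targets and the other feedback genes lie almost wholly on the lower side, and receptors and kinases hold calls in both directions.

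Asparagine withdrawal in vehicle gave no call among the 10 genes. At 6 h 0 of 10 were called, where 4.57% of all genes were, and 0 at 24 h, where 0.00574% were (1 gene). The largest value at 6 h was that of BIRC3, which read 229, 264 and 418 CPM without asparagine against 165, 168 and 275 CPM with it. Its groups overlapped, with a log2 change of 0.58 ± 0.32 (adjusted p = 0.41, edgeR). At 6 h 8 of the 10 genes were higher without asparagine in all 3 same-numbered pairs, a pattern that 30.1% of all genes showed, and ICAM1 and TNFAIP2 were not. Some of these ratios were hardly above 1, as for NFKB2 (1.11, 1 and 1.01) and NFKBIZ (1.31, 1 and 1.21). TNFAIP3 was 1.21, 1.18 and 1.2 times as high in these pairs, with a log2 change of 0.26 ± 0.31. Same-numbered libraries of these groups deviated together in all 3 pairs. With the replicate number as a block within each time, 0 of the 10 were called, beside 6.41% of all genes. That fit gave narrower values: 0.34 ± 0.11 for SOD2 (adjusted p = 0.079, edgeR), 0.58 ± 0.21 for BIRC3 (0.13) and 0.26 ± 0.12 for TNFAIP3 (0.27).

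Under ISRIB the same withdrawal gave the values nearest to the threshold at 6 h. Of the 10 genes 0 were called in the fit with 1 mean per group, where 2.3% of all genes were. The groups did not overlap for 2 of the 10, BIRC3 and NFKBIA, as for 12.9% of all genes. BIRC3 read 326, 307 and 872 CPM without asparagine and 205, 189 and 268 CPM with it, with a log2 change of 1.18 ± 0.32 (adjusted p = 0.058, edgeR). The 872 CPM library was among the 3 of most negative GC slope, as was the 205 CPM library. TNFAIP3 read 462, 703 and 921 CPM against 220.2, 342 and 467 CPM, with 1 library of each group inside the other's range (1.02 ± 0.31, adjusted p = 0.1), and was 2.1, 2.05 and 1.97 times as high in the libraries of the same number. NFKBIA read 109.6, 146 and 133 CPM against 65.9, 101 and 104 CPM (0.52 ± 0.15, adjusted p = 0.096).

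These calls turned on the fit. DESeq2 called NFKBIA (adjusted p = 0.042), TNFAIP3 (0.03) and BIRC3 (0.04), and edgeR called TNFAIP3 and BIRC3 without replicate 1 of ISRIB without asparagine at 6 h. BIRC3 was called also without replicate 2 of that group, or without replicate 3 of ISRIB with asparagine at 24 h. The log2 change of BIRC3 lay between 0.52 and 1.43 when single libraries were left out, and that of TNFAIP3 between 0.76 and 1.30. An offset for GC content, and a fit without the filter on low counts, each called more of the 10 genes than DESeq2 did. The replicate number as a block within each time called 5 of the 10, beside 4.31% of all genes. Here the same-numbered libraries did not deviate together in every pair (lowest correlation -0.221). All settings are given in the last section.

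At 24 h under ISRIB 0 of the 10 genes were called by edgeR with 1 mean per group, where 22.1% of all genes were. NFKB2 read 69.8, 61.2 and 60.7 CPM without asparagine and 55.3, 54.6 and 34.8 CPM with it (0.40 ± 0.16, adjusted p = 0.07). It was called without replicate 1 of ISRIB with asparagine at either time (lowest adjusted p = 0.03). RELB read 14.1, 10.5 and 10.5 CPM against 10.2, 8.68 and 2.95 CPM (0.66 ± 0.31, adjusted p = 0.14), and here too the lowest library was the one of most negative GC slope. For TNFAIP3 the difference was 0.69 ± 0.32 and for BIRC3 it was -0.31 ± 0.33.

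**Figure D4:**
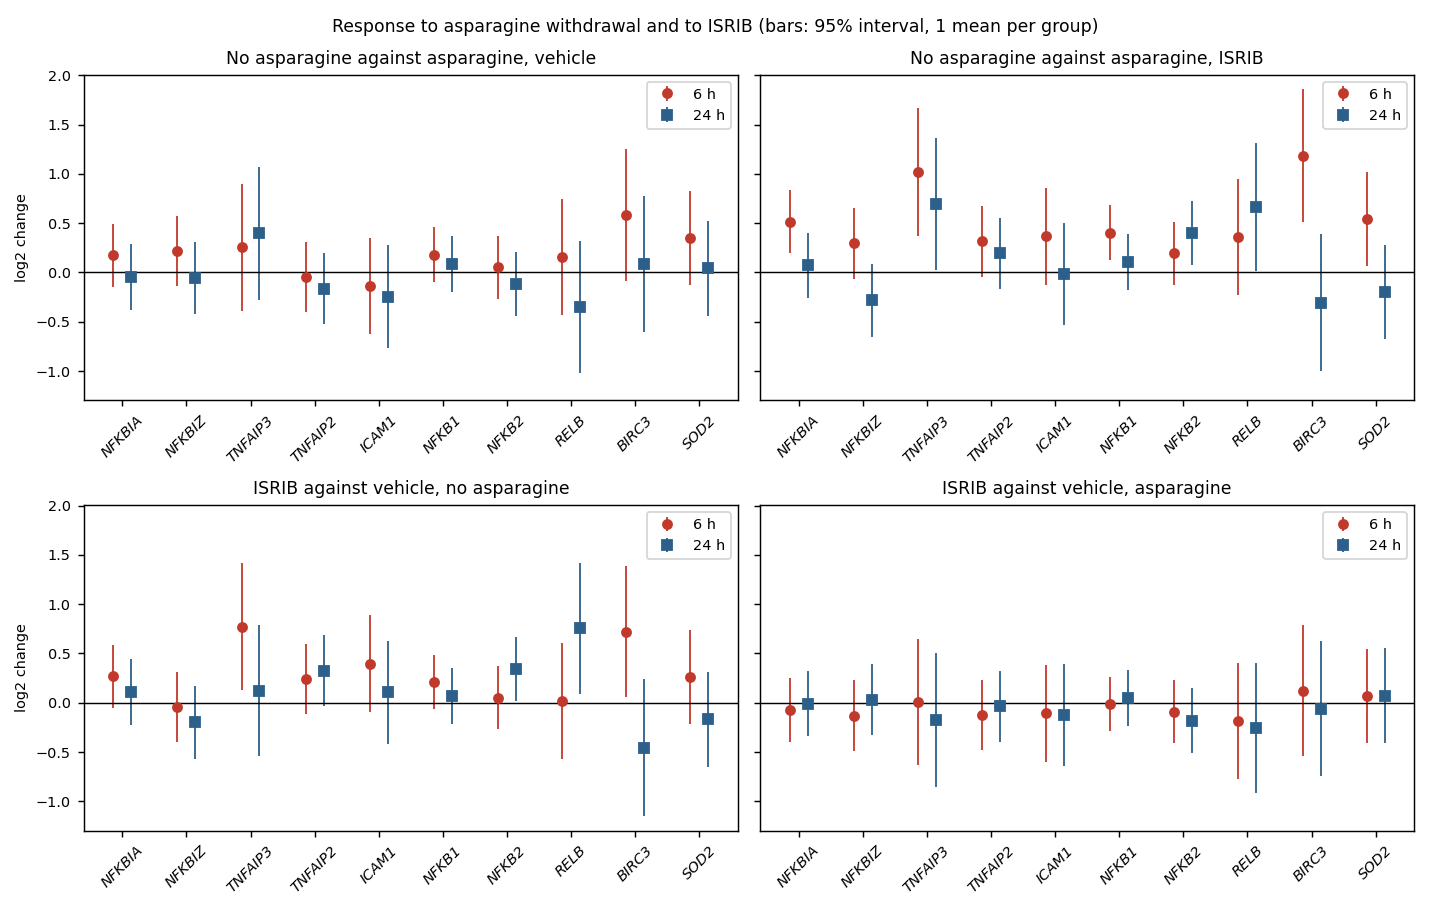
Log2 changes of the 10 genes for asparagine withdrawal in vehicle and in ISRIB (top) and for ISRIB against vehicle without and with asparagine (bottom), at 6 h (red circles) and 24 h (blue squares), with 95% intervals. The values furthest from 0 are those of BIRC3 (1.18) and TNFAIP3 (1.02) at 6 h for withdrawal under ISRIB.

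ISRIB was next set against vehicle in each medium. With asparagine 0 of 10 genes were called at 6 h and 0 of 10 at 24 h, and 0% of all genes were called at either time by edgeR. At an unadjusted p below 0.05 edgeR counted 203 genes at 6 h and 248 at 24 h. DESeq2 and limma also called 0 genes at both times. For TNFAIP3 the difference at 6 h was 0.01 ± 0.31, with a 95% interval of -0.64 to 0.65 in the fit with 1 mean per group.

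Without asparagine 0 of 10 genes were called at 6 h (2.19% of all genes) and 0 of 10 at 24 h (21.7%) in the fit with 1 mean per group. TNFAIP3 at 6 h read 462, 703 and 921 CPM with ISRIB and 266, 422 and 535 CPM with vehicle. The groups overlapped, yet each ISRIB library was above the vehicle library of the same number, by 1.73, 1.67 and 1.72 times. The log2 change was 0.77 ± 0.31 (adjusted p = 0.32, edgeR). These were groups whose same-numbered libraries deviated together in all 3 pairs (correlations of 0.327 to 0.470). With the replicate number as a block within each time, edgeR gave 0.77 ± 0.12 (adjusted p = 0.00077) and called 1 of the 10 genes, TNFAIP3, beside 3.35% of all genes. That block was shared by all 4 groups at 6 h. Among them ISRIB with asparagine did not deviate together with others in every pair. The lowest correlations were -0.221 with ISRIB without asparagine and -0.0328 with vehicle with asparagine. With 1 block over both times the adjusted p was 0.25.

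The replicate structure at 6 h was shared by several of the genes. TNFAIP3, NFKB1 and SOD2 were lowest in replicate 1 and highest in replicate 3 in 4 of 4 groups at 6 h. The share of all genes with this order was not counted, so it cannot be called particular to these genes. In vehicle with asparagine TNFAIP3 in replicate 3 was 2.03 times that in replicate 1. BIRC3 was highest in replicate 3 in 4 of 4 groups, by 2.68 times over replicate 1 in ISRIB without asparagine. The biological coefficient of variation, the spread between replicates beyond counting error, was 26.6% for TNFAIP3, 27.4% for BIRC3 and 25.4% for RELB, against a median of 12.6% over all genes.

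**Figure D5:**
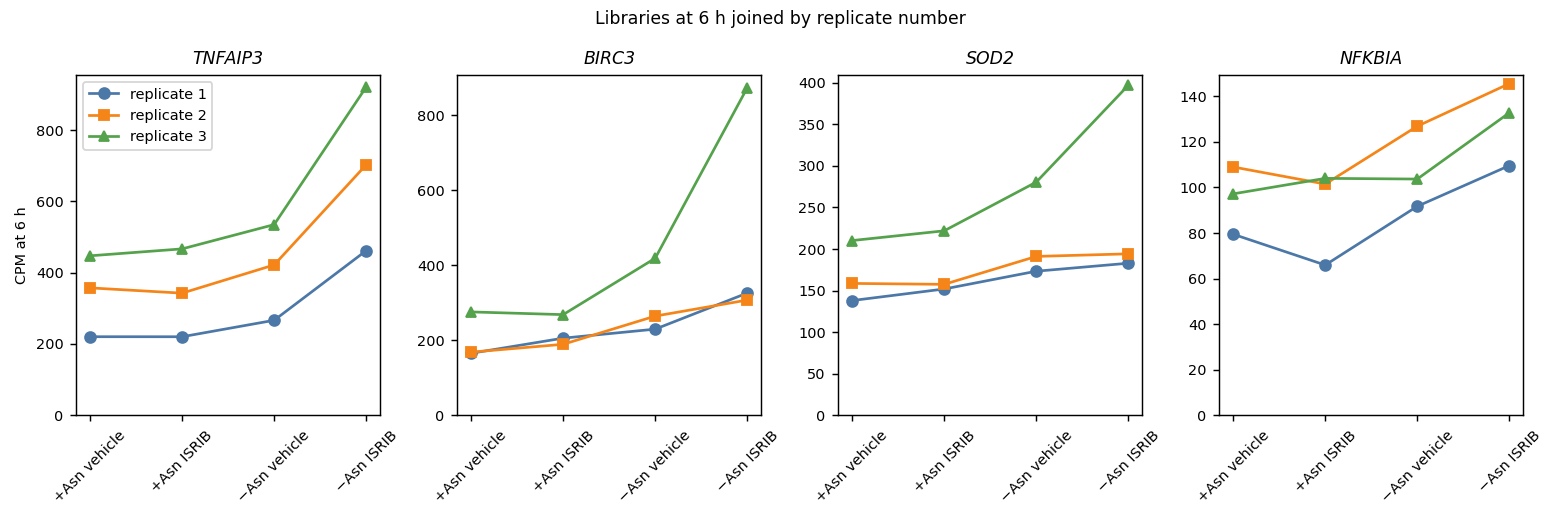
CPM at 6 h of TNFAIP3, BIRC3, SOD2 and NFKBIA in the 4 conditions (+Asn, with asparagine; −Asn, without), with libraries of the same replicate number joined by a line. For TNFAIP3 the 3 lines do not cross and each rises from vehicle to ISRIB without asparagine, as from 266 to 462 CPM in replicate 1, while the high BIRC3 and SOD2 values come from replicate 3. In ISRIB without asparagine, the library of replicate 3 was among the 3 of most negative GC slope.

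The other 9 genes were not called for ISRIB without asparagine in the fit with 1 mean per group. At 6 h the difference of BIRC3 was 0.72 ± 0.32 (adjusted p = 0.4), and it was 0.06 at its lowest when 1 library was left out, the 872 CPM library of replicate 3. At 24 h RELB read 14.1, 10.5 and 10.5 CPM with ISRIB and 7.46, 7.75 and 5.61 CPM with vehicle, a difference of 0.76 ± 0.32 (adjusted p = 0.093). It was called without replicate 3 of ISRIB with asparagine at 24 h (adjusted p = 0.029). NFKB2 read 60.7 to 69.8 CPM against 46.9 to 53.1 CPM (0.34 ± 0.16, adjusted p = 0.12). At 24 h the groups did not overlap for 4 of the 10 genes, with RELB, NFKB2 and NFKBIA higher and SOD2 lower under ISRIB, a share near the 43% of all genes. BIRC3 at 24 h differed by -0.45 ± 0.33. The comparisons of withdrawal and of ISRIB at one time share libraries, so their values are not independent of each other.

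Differences between these effects were tested directly, again with 1 mean per group. The interaction of medium and drug called 0 of 10 genes at 6 h (0.718% of all genes) and 0 of 10 at 24 h (9.06%). The largest interactions were those of TNFAIP3 at 6 h (0.76 ± 0.44) and RELB at 24 h (1.01 ± 0.45, adjusted p = 0.15, edgeR). The withdrawal effect in vehicle at 24 h minus that at 6 h called 0 of 10 (1.22% of all genes), and the same difference for ISRIB without asparagine called 0 of 10 (7.59%). BIRC3 had the largest value of the latter, -1.18 ± 0.46 (adjusted p = 0.12), and was called without replicate 2 of ISRIB without asparagine at 6 h.

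The 4 pathway lists held calls for withdrawal and for ISRIB. At 6 h in vehicle, withdrawal raised 4 of 26 other targets and lowered 1 (median 0.28, all genes 0.005), where 3.31% of all genes were higher and 1.26% lower. The genes of lowest p were TNFRSF9 (1.91 ± 0.28), the pentraxin gene PTX3 (2.09 ± 0.41) and the cytokine gene IL1A (1.6 ± 0.35), each near 1 CPM on average. The chemokine gene CCL20 also rose (2.52 ± 0.70) and the growth factor gene CSF1 fell (-0.60 ± 0.15). The other lists had 1 call each, namely LTBR lower (-0.45 ± 0.13), the deubiquitinase gene CYLD higher (0.56 ± 0.15) and TNFAIP8 higher (0.84 ± 0.22). All 3 calls were lost without replicate 3 of vehicle without asparagine at 6 h (adjusted p 0.18 to 0.22), and LTBR, CYLD and TNFAIP8 were lost without any 1 of 11, 3 and 4 libraries respectively. With the replicate block within each time, where all 3 pairs of these groups also deviated together, 10 targets rose and 2 fell (4.49% of all genes higher and 1.92% lower), the urokinase gene PLAU among the former (0.80 ± 0.10, adjusted p = 4.1e-05), and TRAF1 (0.65 ± 0.15) rose and NFKBIE (-0.45 ± 0.11) fell among the feedback genes. At 24 h in vehicle none of the 4 lists had a call.

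Under ISRIB at 6 h withdrawal raised 2 of 26 targets and lowered none in the fit with 1 mean per group (median 0.70, all genes 0.003), where 1.63% of all genes were higher and 0.666% lower. They were the cytokine gene IL6 (1.38 ± 0.28) and the transcription factor gene IRF1 (0.71 ± 0.15). TRAF1, a feedback adaptor, rose by 1.11 ± 0.23, and the receptor kinase gene RIPK1 by 0.43 ± 0.10. These 4 calls were lost with the compared groups alone (adjusted p 0.23 to 0.58). Each was lost also without 1 library or more: replicate 3 of ISRIB without asparagine at 6 h for TRAF1, IL6 and RIPK1 (adjusted p 0.057, 0.053 and 0.14), and replicate 1 of ISRIB with asparagine at 6 h for IL6, IRF1 and RIPK1 (0.051, 0.056 and 0.061). IL6 and RIPK1 were lost too without replicate 2 of the latter group (0.064 and 0.099), and IRF1 without replicate 2 of the former (0.072).

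Under ISRIB at 24 h withdrawal lowered 9 of 20 receptors and adaptors and raised none (median -0.23, all genes 0.008), where 12.2% of all genes were lower and 9.97% higher. TLR4 fell by 1.87 ± 0.21, IL1R1 by 1.09 ± 0.11 and the interleukin-18 receptor gene IL18R1 by 0.69 ± 0.14. Of 17 kinases and ubiquitin enzymes TANK (-1.01 ± 0.19), MAP3K8 (-0.91 ± 0.18), TBK1 (-0.69 ± 0.18) and MAP3K7 (-0.37 ± 0.11) were lower and SHARPIN higher (0.52 ± 0.18). Among targets MMP9 (-1.31 ± 0.33) and CSF1 (-0.47 ± 0.15) were lower and the survival gene BCL2L1 higher (0.50 ± 0.15), and among feedback genes NFKBIB was higher (0.46 ± 0.15) and TNIP1 lower (-0.45 ± 0.15). The calls of TBK1, BCL2L1, CSF1, NFKBIB and TNIP1 were lost without any 1 of 1, 2, 3, 3 and 4 libraries respectively (adjusted p up to 0.17). The highest p came without replicate 3 of ISRIB with asparagine at 24 h for TBK1, BCL2L1 and NFKBIB, without replicate 1 of that group for CSF1, and without replicate 3 of ISRIB without asparagine at 24 h for TNIP1.

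At 24 h without asparagine the calls for ISRIB lay mostly among upstream genes of the pathway. Of 20 receptors and adaptors 8 were lower and 1 higher, IRAK1 (0.50 ± 0.15), and of 17 kinases and ubiquitin enzymes 5 were lower and 1 higher, SHARPIN (0.57 ± 0.18), where 11.6% of all genes were lower and 10.1% higher. TLR4, the lipopolysaccharide receptor, fell by 1.96 ± 0.21 and IL1R1 by 1.06 ± 0.11 on the log2 scale. Among kinases and their partners TANK fell by 0.98 ± 0.19, MAP3K8 by 0.88 ± 0.18, TBK1 by 0.73 ± 0.18, and MAP3K7 and TAB2 by 0.34 and 0.31. Of the other targets 0 rose and 2 fell, LCN2 (-0.43 ± 0.08) and MMP9 (-1.05 ± 0.35), a gene of 0.63 CPM on average whose call was lost without any 1 of 5 libraries (adjusted p up to 0.15). Of the feedback genes NFKBIB, an IkB, was higher by 0.61 ± 0.15, RELA higher by 0.44 ± 0.13 and TNIP1 lower (-0.46 ± 0.15), and the calls of RELA and TNIP1 were each lost without any 1 of 4 libraries (adjusted p up to 0.089 and 0.1).

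At 6 h without asparagine ISRIB gave 3 calls among the 26 targets and none in the other 3 lists, where 0.551% of all genes were higher and 1.64% lower. CD83, a surface marker of activated dendritic cells, was higher (0.81 ± 0.17), and LCN2 (-0.46 ± 0.08) and TNFRSF9 (-1.05 ± 0.26) were lower. All 3 were lost with the compared groups alone (adjusted p 0.11 to 0.21), CD83 also without replicate 1 of vehicle without asparagine at 6 h (0.076), and TNFRSF9 without any 1 of 4 libraries (up to 0.19). With the replicate block within each time 4 targets were higher and 3 lower (1.13% and 2.23% of all genes), with CD83 (0.82 ± 0.08), CXCL1 (0.77 ± 0.16), IRF1 (0.42 ± 0.09) and IL6 (0.59 ± 0.16) higher and IL1A lower (-1.14 ± 0.29) besides LCN2 and TNFRSF9. With asparagine no gene of the 4 lists was called at either time.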

How the data were processed

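RNA from PC9 cells was sequenced as 24 libraries in 8 groups of 3. Per the submitters' processing notes the authors used Bowtie2, featureCounts and DESeq2 with hg38; their versions and the strand setting are not given in the sources used here. A deposited count table gave raw counts per gene and was tested. A second deposited table of log2 values, variance-stabilized by the authors per the submitters' processing notes and file headers, served as an alternative input to limma 3.58.1.

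Counts were scaled by TMM (0.902 to 1.08), filtered by filterByExpr and fitted with edgeR 4.0.16 in R 4.3.3, with 1 mean per group (common dispersion 0.0176; 16 residual degrees of freedom). Filtering set aside 0.0751% to 0.0980% of the counts. The procedure was tested on simulated data. CPM use TMM-scaled totals. Gene identifiers were matched to GENCODE 29 without version (36620 matched), which gave exon lengths. Promoter sequences are from RefSeq (GRCh38.p14).

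All 10 genes were named in each comparison, and of each list up to 3 genes of smallest adjusted p below 0.05; where a count was 5 or fewer, further genes were named after their values were seen. The members, the lists and 3 of the 4 time comparisons were chosen with earlier results of these data known, and adjusted p is over all genes. Alternatives were DESeq2 1.42.0, other size factors, no filter, the compared groups alone, limma, a replicate block, a GC offset, both together, leaving out each library and leaving out the 3 libraries of most negative GC slope. A block within each time was added after the data were seen, alone, with the GC offset and without those 3 libraries. Same-numbered libraries deviated together in all 3 pairs for withdrawal in vehicle at 6 h (correlations 0.304 to 0.339), for the same contrast at 24 h (0.187 to 0.350), and for the drug in starved cells at 6 h (0.327 to 0.470), so the numbers were taken as pairs there; in the other comparisons at least 1 pair was at or below 0.1. As nothing says what the replicates share beyond the word biological, p sets a difference only against the spread between these samples of the PC9 line.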

Additional observations from a re-analysis of the deposited data

Results flagged for a closer look

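In the fit with 1 mean per group none of the 10 genes was called by a test of the difference between effects. Of the other genes of the NF-kB lists 8 were called in that fit, for the interaction at 24 h or the difference between times. The effect of ISRIB without asparagine minus that with asparagine at 24 h was -2.16 for TLR4 (adjusted p = 5.6e-05, edgeR), -1.12 for IL1R1, -1.22 for TANK, -0.90 for TBK1, -0.85 for TLR3 and -0.41 for LCN2, all on the log2 scale. Of these calls that of TBK1 was lost without any 1 of 7 libraries (highest adjusted p 0.095), that of LCN2 without any 1 of 8 (0.086) and that of TLR3 without any 1 of 18 (0.13). The highest p of TBK1 and TLR3 came without replicate 3 of ISRIB with asparagine at 24 h, and that of LCN2 without replicate 3 of ISRIB without asparagine at 24 h. The effect of ISRIB without asparagine at 24 h minus that at 6 h was -1.73 for TLR4, -1.04 for IL1R1, -0.84 for TBK1, -1.08 for CD83 and -0.73 for CSF1. Here the call of TBK1 was lost without any 1 of 13 libraries (adjusted p up to 0.15, without replicate 3 of ISRIB without asparagine at 6 h) and that of CSF1 without any 1 of 9 (up to 0.092, without replicate 1 of vehicle without asparagine at 6 h).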

How the results depend on the processing

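Under 33 planned settings the number of the 10 genes lower at 24 h stayed between 7 and 9 in both conditions with asparagine. It stayed between 8 and 10 in vehicle without asparagine, and at 10 in ISRIB without it. The 3 added settings did not cover these comparisons of 24 h with 6 h. For the other comparisons the count was 0 in the reported fit. DESeq2 called 3 genes for withdrawal under ISRIB at 6 h. Without a filter on low counts 1 was called for withdrawal in vehicle at 6 h, 4 and 3 for withdrawal under ISRIB at 6 h and 24 h, 2 and 4 for ISRIB without asparagine at 6 h and 24 h, 1 and 2 for the interaction at 6 h and 24 h, and 3 for the difference between times of ISRIB without asparagine. With the compared groups alone ISRIB without asparagine at 24 h called 3, as it did once the 3 libraries with the lowest GC slopes were omitted. The GC offset called 4 for withdrawal under ISRIB at 6 h. When single libraries were left out, the counts spanned 0 to 2 for withdrawal under ISRIB at 6 h and 0 to 1 for that at 24 h, for ISRIB without asparagine at 24 h and for its difference between times.

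The replicate block called 1 gene for withdrawal under ISRIB at 6 h, and together with the GC offset it called 6 there and 1 for ISRIB without asparagine at 6 h. A replicate block within each time called 5 for withdrawal under ISRIB at 6 h (TNFAIP3, adjusted p = 8.2e-05 by edgeR, NFKBIA 0.0013, BIRC3 0.0081, NFKB1 0.011 and SOD2 0.016), where 13 of 26 targets were higher and 0 lower. It called 3 for that at 24 h (TNFAIP3 0.00084, NFKB2 0.026 and RELB 0.035), 1 and 1 for ISRIB without asparagine (TNFAIP3 at 6 h, RELB 0.032 at 24 h), 1 and 1 for the interaction (TNFAIP3 0.035 at 6 h, RELB 0.049 at 24 h), and 2 for the difference between times of ISRIB without asparagine (TNFAIP3 0.021 and BIRC3 0.035). It also called the interaction at 6 h for CD83 and LCN2. Of these, only ISRIB without asparagine at 6 h compared groups whose numbers were taken as pairs. With the GC offset this block called 5 for withdrawal in vehicle at 6 h, 9 and 3 under ISRIB, 5 and 1 for ISRIB without asparagine, 5 and 1 for the interaction, 2 for the time difference of withdrawal in vehicle and 5 for that of ISRIB without asparagine. In that difference between times TNFAIP2 reversed, to -0.33 (adjusted p = 0.016, edgeR) from 0.08. Without the 3 libraries the block called 2 for withdrawal in vehicle at 6 h, 4 and 2 under ISRIB, 1 and 5 for ISRIB without asparagine, 2 for the interaction at 24 h and 2 for the time difference of ISRIB without asparagine. The block within each time could not be fitted to comparisons between the times. Where the numbers were taken as pairs, this block alone changed 1 call of the 10 genes, that of TNFAIP3 for ISRIB without asparagine at 6 h. With the GC offset it called 5 for that comparison and 5 for withdrawal in vehicle at 6 h. Without the 3 libraries it called 1 and 2 respectively. Over all comparisons 15 of 24 libraries deviated most like those of their own number. The cause of these shifts was not tested. Of 5640 values under other settings, 169 had the opposite sign with neither value called. In the fit with 1 mean per group the intervals of TNFAIP3, BIRC3 and RELB span more than a doubling.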
